A study of Mus musculus with 4 samples.

Results

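The open chromatin of 5 gene loci known from other work for their induction by glucocorticoids, Zbtb16, Dusp1, Klf9, Errfi1 and Ddit4, was followed across 4 hormone conditions in 7438 cells. The members were chosen by position: every hypersensitive region that overlapped 1 of 5 windows around these genes was taken, whatever its density. The windows, gene lists and limits were themselves set with earlier results of these data known, so the shares below are descriptions and no independent support. The windows were, on mm9, chr9:48400000-48720000 (Zbtb16), chr17:26590000-26700000 (Dusp1), chr19:23160000-23300000 (Klf9), chr4:150170000-150300000 (Errfi1) and chr10:59360000-59470000 (Ddit4), 810 kb together. They held 191 of the 202687 regions in the 4 deposited lists. Joining regions of different lists that overlapped or touched gave 69 sites out of 103288, of which 16 lay at Zbtb16, 8 at Klf9, 13 at Dusp1, 12 at Errfi1 and 20 at Ddit4. Sites are numbered within a window in the order of their positions.

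7438 is a mouse mammary line in which a tetracycline-repressed promoter drives fusions of GFP to the glucocorticoid receptor (GR) and of Cherry to the estrogen receptor (ER), so both fusions were induced in all conditions. Tetracycline was removed 24 h before hormone. The cells then received 100 nM dexamethasone plus 100 nM estradiol (Dex+E2), 100 nM dexamethasone alone (Dex, a synthetic GR ligand), 100 nM estradiol alone (E2, the ligand of ER) or no hormone (untreated), with 30 min of treatment. Each condition had 1 DNase-seq library, an assay in which DNase I cuts accessible DNA, and RNA levels of the genes were not analysed here. All differences therefore lie between single libraries, no spread between replicates of a condition could be measured, and no test was run.

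GR resides in the cytoplasm until a glucocorticoid binds it. It then enters the nucleus and binds response elements, many of them far from gene starts, where chromatin is opened or made more accessible. Zbtb16 and Klf9 code for zinc finger transcription factors. The products of the other genes restrain signalling: Dusp1 is a phosphatase that inactivates MAP kinases, Errfi1 binds and inhibits the EGF receptor kinase, and Ddit4 inhibits the growth-promoting kinase complex mTORC1. In the mammary gland glucocorticoids act with prolactin on milk protein genes. The locus windows also reach into the surroundings of these genes, and the mm9 positions of gene starts were not used here, so that a site is named by its window and not assigned to a promoter or enhancer. Neighbours in RefSeq (GRCm38.p6) are given as the protein-coding genes before and after each gene in order of start coordinate, without distances. They are Nnmt and Gm32280 for Zbtb16, Trpm3 and Smc5 for Klf9, and Neurl1b and Ergic1 for Dusp1. For Errfi1 they are Slc45a1 and Park7, and for Ddit4 Dnajb12 and Anapc16.

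The 250 bases before 5 annotated starts of 4 of the genes are shown because they are the stretches of these loci whose sequence could be read. They come from RefSeq on GRCm38.p6, a build whose positions cannot be set beside the mm9 positions of the sites. Each is written 5′ to 3′ on the gene's strand, with matches to 5 searched motifs in capitals.
Klf9 (chr19:23140976-23141225, plus strand): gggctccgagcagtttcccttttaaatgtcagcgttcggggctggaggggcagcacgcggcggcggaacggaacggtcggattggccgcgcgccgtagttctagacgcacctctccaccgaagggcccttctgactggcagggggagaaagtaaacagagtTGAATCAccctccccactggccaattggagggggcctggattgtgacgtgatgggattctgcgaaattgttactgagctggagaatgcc
Dusp1 (chr17:26508473-26508722, minus strand): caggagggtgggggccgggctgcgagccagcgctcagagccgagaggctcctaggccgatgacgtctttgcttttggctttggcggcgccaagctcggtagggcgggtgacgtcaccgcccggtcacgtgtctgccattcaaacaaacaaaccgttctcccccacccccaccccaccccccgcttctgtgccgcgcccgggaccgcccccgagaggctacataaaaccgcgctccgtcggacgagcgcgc
Errfi1, first start (chr4:150853546-150853795, plus strand): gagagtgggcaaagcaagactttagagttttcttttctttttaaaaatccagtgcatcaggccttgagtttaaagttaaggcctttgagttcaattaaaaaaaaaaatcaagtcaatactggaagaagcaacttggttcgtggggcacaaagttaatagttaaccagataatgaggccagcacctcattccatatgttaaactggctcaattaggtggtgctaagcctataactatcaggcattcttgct
Errfi1, second start (chr4:150854820-150855069, plus strand): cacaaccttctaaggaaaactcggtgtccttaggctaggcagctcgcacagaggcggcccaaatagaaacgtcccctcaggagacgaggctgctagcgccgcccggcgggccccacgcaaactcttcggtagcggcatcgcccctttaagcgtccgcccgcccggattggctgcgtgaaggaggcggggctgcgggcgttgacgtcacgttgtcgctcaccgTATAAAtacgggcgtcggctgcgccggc
Ddit4 (chr10:59951771-59952020, minus strand): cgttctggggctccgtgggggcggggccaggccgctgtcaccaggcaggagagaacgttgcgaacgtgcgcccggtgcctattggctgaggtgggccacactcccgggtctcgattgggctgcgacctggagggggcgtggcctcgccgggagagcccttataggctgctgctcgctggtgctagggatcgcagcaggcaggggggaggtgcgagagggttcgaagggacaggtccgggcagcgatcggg

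The motifs were searched on both strands. The core of the glucocorticoid response element, ACANNNTGT, matched none of the 5 sequences and occurs in 5.84% of the 32851 promoters of the table. The hexamer AGAACA that this element repeats (16.1% of promoters) and the core of the estrogen response element, TCANNNTGA (6.11%), were also without a match. The AP-1 motif TGANTCA (6.75%) matched once, at bases -89 to -83 of Klf9, and the TATA box TATAAA (12.4%) once, at bases -28 to -23 of the second Errfi1 start, with the base before the start counted as -1. The first Errfi1 stretch had a GC content of 38%, against 59.6% to 70% in the others and a median of 52.4% over the table. A missing match says only that these letters are not in these 250 bases.

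The values below are the authors' tag densities, the maximum and, in parentheses, the average over a region. The lists do not say to what total each library was scaled. Within each list every maximum was a whole multiple of 1 step, 0.227 for Dex+E2, 0.245 for Dex, 0.2 for E2 and 0.255 for untreated, read here as 1 tag, from which the 95% Poisson intervals follow. These cover counting error only. They treat each maximum as a plain count, although it is the highest value of its region, so they are approximate. Over the 20687 sites found in all 4 lists the median maximum density was 15.4 after Dex+E2, 14.7 after Dex, 10.2 after E2 and 30.1 in untreated cells, log2 shifts against untreated of -0.96, -1.03 and -1.56 for Dex+E2, Dex and E2. Folds between libraries are therefore given relative to these medians unless marked as deposited, and their intervals treat the medians as fixed. The windows held 52 sites of the Dex+E2 list, 53 of the Dex list, 29 of the E2 list and 44 of the untreated list. Counted as regions before joining, the windows held 57, 56, 31 and 47 of the Dex+E2, Dex, E2 and untreated lists. In the lists as a whole the order is another, with 50061, 51251, 35496 and 65879 regions in the Dex+E2, Dex, E2 and untreated lists. The lowest maximum density listed in the windows was 4.54 after Dex+E2, 4.65 after Dex, 4.60 after E2 and 5.61 in untreated cells. A site that a list lacks was not called by the authors in that library and has no value. The lowest listed density also differed between windows. After Dex it was 4.65 at Zbtb16, 4.90 at Errfi1, 5.14 at Klf9, 7.35 at Ddit4 and 9.31 at Dusp1. Counts of listed sites per gene therefore do not rest on a common density.

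Sites listed in both libraries with Dex and in neither of the others made up 13 of the 69 sites (18.8%, Wilson 95% interval 11.4 to 29.6), against 1.92% of all 103288 sites. Of these 13, 8 lay at Zbtb16, 2 at Dusp1 and 3 at Ddit4, while Klf9 and Errfi1 had none. No site in the windows had the matching pattern for estradiol (E2 and Dex+E2 lists alone), which 1.32% of all sites have. Sites in all 4 lists numbered 25 (36.2%, 25.9 to 48, against 20% of all sites), with 9 each at Errfi1 and Ddit4, 4 at Dusp1, 3 at Klf9 and none at Zbtb16. The untreated list alone held 7 sites (10.1%, 5.00 to 19.5, against 26.0%). With each list cut to its densest 35496 regions, the length of the shortest, the untreated list alone held 4 window sites and the pattern for estradiol had 1. The Dex library alone had 5 sites, the Dex+E2 library alone 5 and the E2 library alone 1, all with a maximum density of 11.1 or less. Over all sites, 60761 of the 103288 were in 1 list, against 18 of the 69 in the windows. Sites in 1 list were mostly weak, and the shares above were not matched for density.

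**Figure D1:**
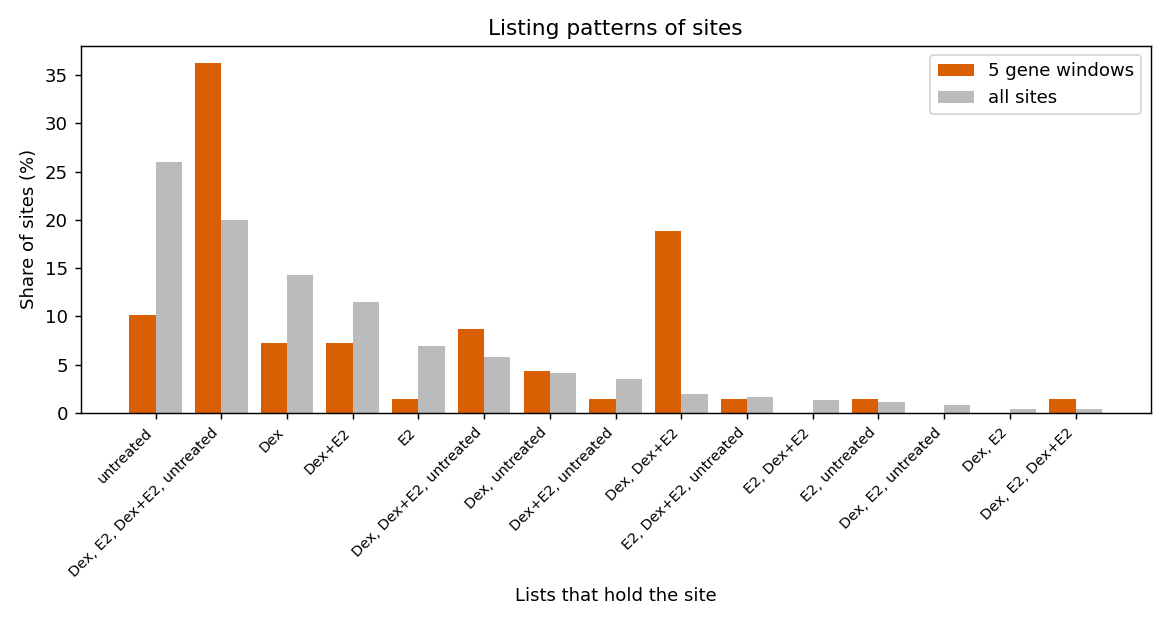
Share of sites (%) by the lists that hold them, for the 69 sites of the 5 gene windows (orange, left) and all 103288 sites (grey, right); each bar is a share of its own total. The pattern of both Dex lists without the others stands at 18.8% in the windows and 1.92% overall.

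Of the 63 window sites that were in the Dex or the untreated list, 19 (30.2%, 20.2 to 42.4) were listed after Dex but not untreated, against 21.2% of all such sites. In the other direction 10 (15.9%, 8.86 to 26.8) were listed untreated but not after Dex, against 40.5%. The Dex+E2 list held 14 of the 19 sites that the Dex list had and the untreated list lacked (73.7%, 51.2 to 88.2), against 13.4% of all such sites. Among the 16 window sites with a maximum density of at least 20 after Dex, 5 (31.2%, 14.2 to 55.6) were missing from the untreated list, against 1.95% over all sites. These 5 were Zbtb16 site 6, Dusp1 sites 5 and 10 and Ddit4 sites 18 and 19. For E2 the corresponding comparison gave 2 of 46 sites in the E2 and not in the untreated list (4.35%, 1.20 to 14.5, against 12.5%). In the comparison of Dex+E2 with E2, 25 of 54 sites were in the Dex+E2 list and not in the E2 list (46.3%, 33.7 to 59.4), near the 41.1% of all sites.

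**Figure D2:**
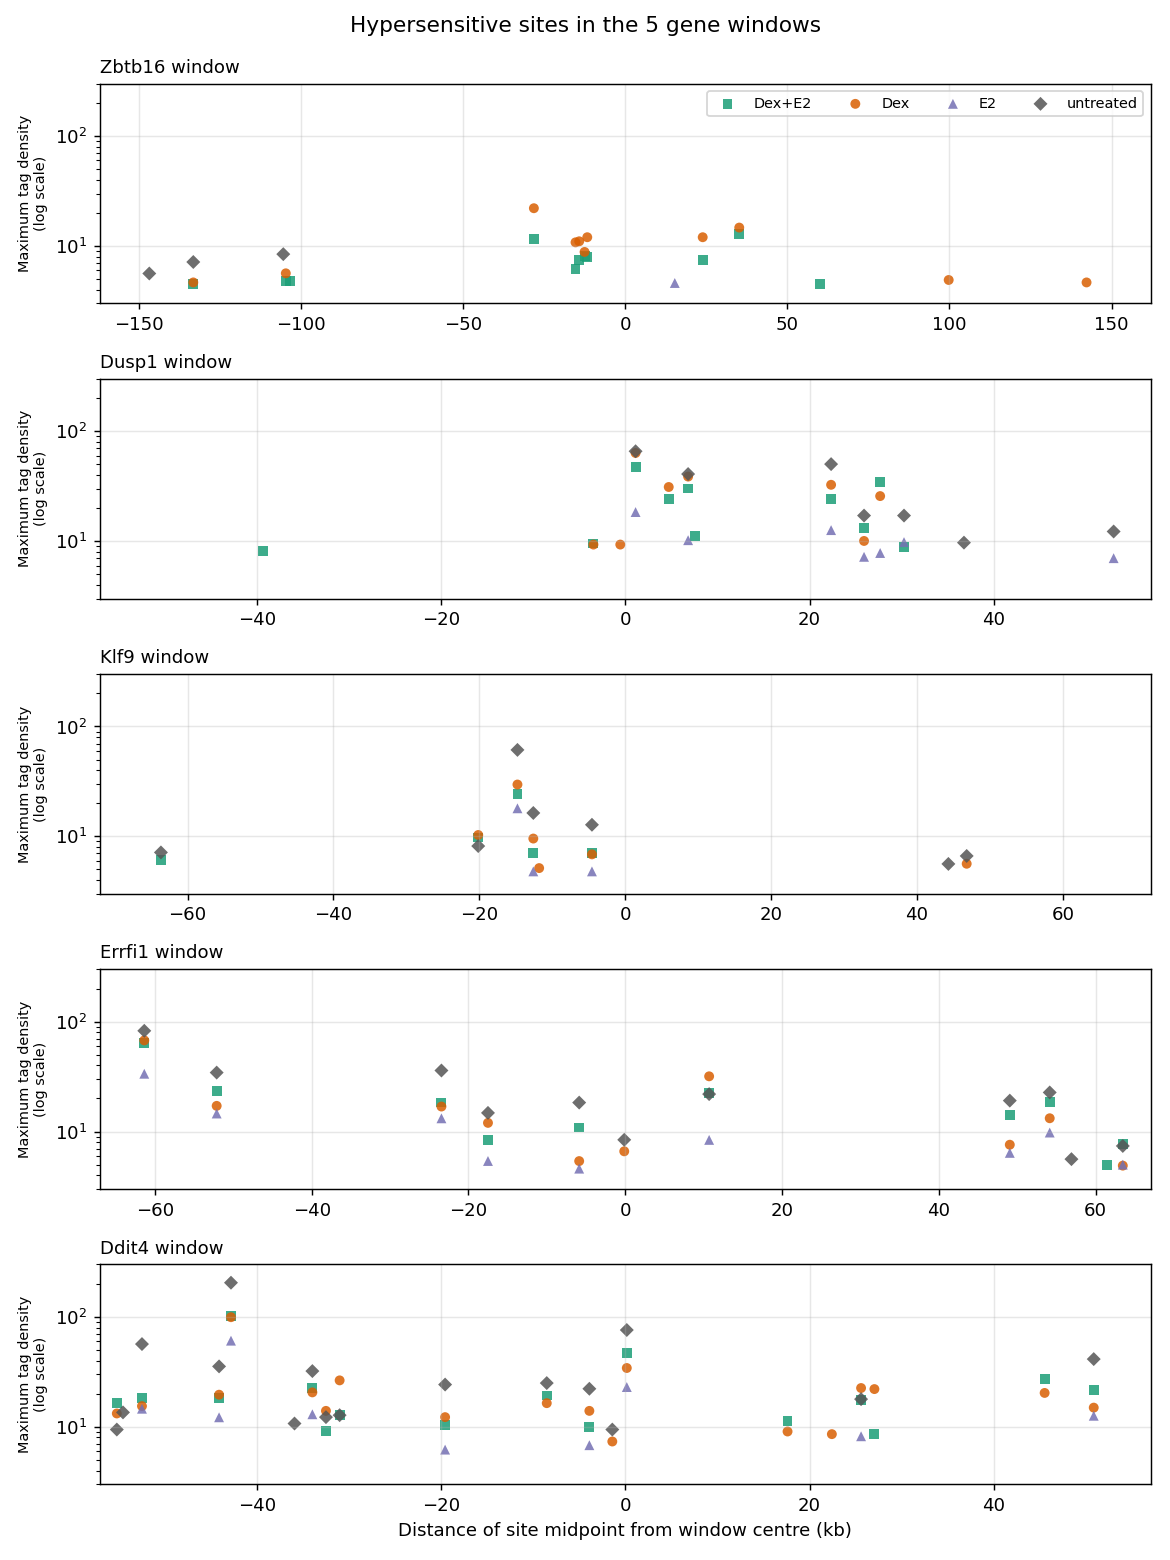
Maximum tag density (log scale) of each listed site by the distance of its midpoint from the centre of its window (kb), 1 panel per gene window, with 1 symbol per library that lists the site. At Zbtb16 the untreated symbols stop at 8.42 and lie in the left part of the panel, whereas at the other genes untreated values reach 61.2 to 205.

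Zbtb16, also called PLZF, codes for a transcription factor with a BTB domain. In its window 11 sites were listed after Dex+E2, 11 after Dex, 1 after E2 and 3 in untreated cells. The strongest, site 6 at chr9:48531496-48532139, reached 11.6 after Dex+E2 (3.64, 8.61 to 15.2) and 22 after Dex (7.25, 17.7 to 27.1), where each parenthesis holds the average density and the interval of the maximum. It was listed neither after E2 nor in untreated cells. Site 13 at chr9:48594778-48595539 came next, with 12.9 after Dex+E2 (3.25, 9.79 to 16.8) and 14.7 after Dex (3.46, 11.2 to 18.9). Site 12 at chr9:48583546-48584230 had 7.49 after Dex+E2 (2.33) and 12 after Dex (3.03). All 3 thus stood above every untreated value of the window after Dex, and sites 6 and 13 also after Dex+E2.

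A group of 4 sites with the same listing pattern lay within 4.40 kb, chr9:48544335-48548732. Site 7 (chr9:48544335-48544993) had 6.12 after Dex+E2 (1.55) and 10.8 after Dex (3.25). Site 8 (chr9:48545504-48546092) had 7.49 after Dex+E2 (2.09) and 11 after Dex (3.21). Site 9 (chr9:48547133-48547769) had 8.17 after Dex+E2 (2.16) and 8.82 after Dex (2.65). All 3 were lower after Dex+E2 than after Dex, as was site 10 (chr9:48547837-48548732), which had 7.94 after Dex+E2 (2.09) and 12 after Dex (2.47). The weakest site of the pattern, site 4 (chr9:48454986-48455631), had 4.76 after Dex+E2 (0.986) and 5.63 after Dex (1.26). It follows shortly after site 3 (chr9:48454197-48454859), which was listed at 8.42 in untreated cells (2.05) alone. Joining regions within 150 bp would merge these neighbours, and likewise sites 9 and 10.

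Other Zbtb16 sites were weak. Site 2 (chr9:48426288-48427257), listed in 3 libraries, had 4.54 after Dex+E2 (1.63), 4.65 after Dex (1.22) and 7.14 in untreated cells (1.68). Relative to the medians this was 1.24-fold (0.662 to 2.28) for Dex+E2 and 1.33-fold (0.704 to 2.48) for Dex over untreated, both intervals including 1. Site 1 (chr9:48412952-48413456) was listed at 5.61 in untreated cells (1.54). Sites in 1 hormone list were site 5 (chr9:48456424-48456708) at 4.76 after Dex+E2 (0.965), site 14 (chr9:48619800-48620077) at 4.54 after Dex+E2 (1.14), site 15 (chr9:48659579-48659938) at 4.9 after Dex (1.47), site 16 (chr9:48702128-48702423) at 4.65 after Dex (0.987) and site 11 (chr9:48575076-48575478) at 4.6 after E2 (0.917). These 5 lie near the lowest densities listed in the windows.

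Klf9 codes for a Krüppel-like factor that binds GC-rich promoter elements. Its window had the fewest sites and none in the pattern of both Dex lists. The strongest, site 3 (chr19:23214460-23215986), had 24.5 after Dex+E2 (4.78, 20.1 to 29.6), 29.6 after Dex (5.27, 24.6 to 35.4), 18 after E2 (3.47, 14.5 to 22.1) and 61.2 in untreated cells (11, 53.7 to 69.5), with the interval of each maximum given after its average. The untreated value is the highest as deposited. Relative to the medians Dex over untreated was 0.992-fold (0.79 to 1.24) and E2 over untreated 0.868-fold (0.673 to 1.11), while Dex+E2 over untreated was 0.781-fold (0.616 to 0.984). Site 4 (chr19:23217042-23217754) had 7.03 after Dex+E2 (1.75), 9.55 after Dex (2.02), 4.8 after E2 (1.84) and 16.3 in untreated cells (4.13). Its ratio of Dex over untreated, 1.2-fold (0.783 to 1.81), was the largest among the 3 Klf9 sites in all 4 lists. Site 6 (chr19:23224375-23226496) had 7.03 after Dex+E2 (1.39), 6.86 after Dex (1.74), 4.8 after E2 (1.31) and 12.8 in untreated cells (2.08).

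Klf9 site 2 (chr19:23208418-23211277) was the site of this window at which both Dex libraries exceeded the untreated one as deposited. It had 9.76 after Dex+E2 (1.89, 7.06 to 13.1), 10.3 after Dex (1.87, 7.41 to 13.9) and 8.16 in untreated cells (1.53, 5.58 to 11.5), and was not listed after E2. Relative to the medians it was 2.33-fold (1.44 to 3.81) for Dex+E2 and 2.58-fold (1.59 to 4.22) for Dex over untreated. The site spanned 2859 bp. Site 1 (chr19:23165940-23166763) had 6.12 after Dex+E2 (1.44) and 7.14 in untreated cells (1.43), and site 8 (chr19:23276520-23277088) had 5.63 after Dex (1.6) and 6.63 in untreated cells (1.87). Site 5 (chr19:23218073-23218324), listed at 5.14 after Dex (0.944), and site 7 (chr19:23274158-23274432), listed at 5.61 in untreated cells (0.87), were in 1 list each.

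Dusp1 is an immediate-early phosphatase gene. Its densest site, site 4 (chr17:26644658-26647584), had 47.4 after Dex+E2 (8.07, 41.2 to 54.3), 63.4 after Dex (9.34, 55.9 to 71.6), 18.4 after E2 (3.31, 14.8 to 22.6) and 65.8 in untreated cells (9.96, 58 to 74.3). As deposited the Dex and untreated values lay within each other's intervals, while the median after Dex was 0.488 of the untreated one, so Dex over untreated was 1.97-fold (1.66 to 2.35) relative to the medians. E2 over untreated was 0.825-fold (0.643 to 1.05). Site 6 (chr17:26651336-26652308) showed the same order, with 30.2 after Dex+E2 (7.42, 25.3 to 35.8), 38.7 after Dex (8.49, 32.9 to 45.2), 10.2 after E2 (2.79, 7.59 to 13.4) and 40.8 in untreated cells (9.6, 34.7 to 47.6) and a ratio of 1.94-fold (1.55 to 2.43) for Dex over untreated. Set against E2 alone, Dex+E2 was 1.7-fold (1.33 to 2.2) at site 4 and 1.96-fold (1.41 to 2.76) at site 6.

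Between these 2 sites lay site 5 (chr17:26649237-26650201), which had 24.3 after Dex+E2 (5.99, 19.9 to 29.3) and 31.1 after Dex (6.4, 25.9 to 37) and was in neither other list. Both neighbours were thus listed in untreated cells, and site 5 was not. Further on, site 10 (chr17:26672015-26673309) had 34.5 after Dex+E2 (7.1, 29.2 to 40.4), 25.7 after Dex (6.21, 21 to 31.1) and 7.8 after E2 (1.92, 5.55 to 10.7). It was the one window site found in all 3 hormone lists and missing from the untreated list. Dex+E2 over E2 was 2.92-fold (2.04 to 4.27) and Dex+E2 over Dex 1.28-fold (0.99 to 1.65). Among the 17523 sites of the Dex list that the untreated list lacks, site 5 was number 46 and site 10 number 76 by maximum density. Both were named for their density, so these ranks are descriptions only.

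Other Dusp1 sites were shared by several lists. Site 8 (chr17:26666418-26668259) had 24.3 after Dex+E2 (6.91), 32.6 after Dex (6.35), 12.6 after E2 (2.51) and 50.2 in untreated cells (8.1), with 1.33-fold (1.06 to 1.66) for Dex and 0.74-fold (0.548 to 0.987) for E2 over untreated. Site 9 (chr17:26670536-26671292) had 13.2 after Dex+E2 (2.93), 10.04 after Dex (2.63), 7.2 after E2 (1.99) and 17.1 in untreated cells (4.02), and its ratio of 1.2-fold (0.795 to 1.8) for Dex over untreated was the smallest of the 4 Dusp1 sites in all lists. Site 11 (chr17:26674933-26675569) was missing from the Dex list and had 8.85 after Dex+E2 (3.34), 9.8 after E2 (4.01) and 17.1 in untreated cells (6.09). Here E2 over untreated was 1.69-fold (1.15 to 2.48) and Dex+E2 over E2 0.597-fold (0.382 to 0.928). Site 13 (chr17:26697450-26698550) had 7.0 after E2 (2.1) and 12.2 in untreated cells (2.45) and was in no list with Dex.

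Weak Dusp1 sites completed the window. Site 2 (chr17:26641350-26641742) had 9.53 after Dex+E2 (2.05) and 9.31 after Dex (1.48). Site 1 (chr17:26605478-26605804) was listed at 8.17 after Dex+E2 (1.76), site 7 (chr17:26652342-26652830) at 11.1 after Dex+E2 (2.91), site 3 (chr17:26644280-26644643) at 9.31 after Dex (1.66) and site 12 (chr17:26681596-26681918) at 9.69 in untreated cells (3.0). Site 3 ends 0.015 kb before the densest site, and site 7 begins shortly after site 6.

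Errfi1, also called Mig-6, codes for a feedback inhibitor of EGF receptor signalling. Of its 12 sites, 9 were listed in every condition. Site 7 (chr4:150245069-150246332) stood out among them, with 22.5 after Dex+E2 (4.49, 18.3 to 27.3), 31.8 after Dex (6.11, 26.6 to 37.8), 8.4 after E2 (1.85, 6.05 to 11.4) and 21.9 in untreated cells (4.24, 17.5 to 27.1). It was the one site in all 4 lists of this window that was higher after Dex than in untreated cells as deposited. Relative to the medians it was 2.97-fold (2.25 to 3.95) for Dex, 2.0-fold (1.48 to 2.7) for Dex+E2 and 1.13-fold (0.762 to 1.65) for E2 over untreated, with the Dex+E2 value just short of the 2-fold limit used below. Adding Dex to E2 gave 1.77-fold (1.22 to 2.6) and adding E2 to Dex 0.672-fold (0.512 to 0.879). The densest site, site 1 (chr4:150172689-150174609), had 64.4 after Dex+E2 (10.6, 57.2 to 72.4), 67.6 after Dex (11.2, 59.8 to 76.1), 33.6 after E2 (6.42, 28.7 to 39.1) and 82.6 in untreated cells (14.5, 73.9 to 92.1), with 1.68-fold (1.42 to 1.97) for Dex over untreated.

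At 2 Errfi1 sites Dex alone was below and Dex+E2 above the untreated level relative to the medians. Site 5 (chr4:150228740-150229507) had 10.9 after Dex+E2 (2.6), 5.39 after Dex (1.17), 4.6 after E2 (1.44) and 18.4 in untreated cells (5.32), which is 1.16-fold (0.786 to 1.69) for Dex+E2 and 0.601-fold (0.355 to 0.98) for Dex over untreated. Dex+E2 over Dex was 1.93-fold (1.14 to 3.35) there. Site 8 (chr4:150283672-150284432) had 14.1 after Dex+E2 (3.85), 7.59 after Dex (2.05), 6.4 after E2 (2.32) and 19.1 in untreated cells (5.43), or 1.43-fold (1.01 to 2.04) for Dex+E2 and 0.813-fold (0.517 to 1.25) for Dex over untreated, with Dex+E2 over Dex at 1.76-fold (1.13 to 2.81). At both sites the interval of Dex+E2 over E2 included 1.

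The other Errfi1 sites in all lists had the following values. Site 2 (chr4:150182270-150183495) had 23.4 after Dex+E2 (4.9), 17.1 after Dex (3.35), 14.6 after E2 (4.04) and 34.4 in untreated cells (7.12). Site 3 (chr4:150211006-150212100) had 18.4 after Dex+E2 (3.55), 16.9 after Dex (4.16), 13.2 after E2 (3.12) and 36 in untreated cells (7.82). At neither did the interval of Dex over untreated leave out 1. Site 4 (chr4:150217136-150217843) had 8.39 after Dex+E2 (2.07), 12 after Dex (2.93), 5.4 after E2 (1.62) and 14.8 in untreated cells (3.44), with 1.66-fold (1.11 to 2.47) for Dex over untreated. Site 9 (chr4:150288261-150290029) had 18.6 after Dex+E2 (4.96), 13.2 after Dex (2.67), 9.8 after E2 (2.25) and 22.7 in untreated cells (5.63). At site 9 Dex+E2 over untreated was 1.6-fold (1.17 to 2.18). Site 12 (chr4:150298157-150298776) had 7.71 after Dex+E2 (2.02), 4.9 after Dex (0.589), 5.0 after E2 (1.16) and 7.4 in untreated cells (1.93), and Dex+E2 over untreated of 2.03-fold (1.2 to 3.46) at low densities. The last 3 sites were weak and in 1 or 2 lists. Site 6 (chr4:150234560-150235183) was in 2 lists, with 6.61 after Dex (2.06) and 8.42 in untreated cells (2.37). Site 11 (chr4:150296327-150296578) was listed at 4.99 after Dex+E2 (1.05) and site 10 (chr4:150291725-150292107) at 5.61 in untreated cells (1.73).

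Ddit4, also called REDD1, codes for a stress-induced inhibitor of mTORC1. Its window was the densest in sites, with 18.2 per 100 kb against 5 at Zbtb16. It held the strongest site of all 5 windows, site 5 (chr10:59371565-59372863), with 101 after Dex+E2 (20.8, 91.8 to 111), 99.4 after Dex (18.6, 90.0 to 110), 60.8 after E2 (12.8, 54.1 to 68) and 205 in untreated cells (41, 191 to 219). Relative to the medians this site was 0.994-fold (0.88 to 1.12) for Dex and 0.962-fold (0.855 to 1.08) for Dex+E2 over untreated. Site 14 (chr10:59414087-59416248), the second densest, had 46.7 after Dex+E2 (7.25), 34.3 after Dex (5.27), 23 after E2 (4.65) and 76 in untreated cells (11). Its interval of Dex over untreated, 0.924-fold (0.75 to 1.13), included 1, and Dex+E2 over Dex was 1.3-fold (1.04 to 1.62).

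Sites listed with Dex and not in untreated cells lay beyond the centre of the window. Site 19 (chr10:59460151-59460872) had 27.2 after Dex+E2 (7.01, 22.6 to 32.6) and 20.3 after Dex (5.06, 16.2 to 25.2), and site 18 (chr10:59441609-59442469) had 8.62 after Dex+E2 (2.05, 6.1 to 11.8) and 22 after Dex (5.06, 17.7 to 27.1). Both were missing from the E2 and untreated lists, as was site 15 (chr10:59432292-59432933), which had 11.3 after Dex+E2 (2.54) and 9.06 after Dex (2.31). Dex+E2 over Dex was 1.28-fold (0.956 to 1.71) at site 19 and 0.373-fold (0.248 to 0.55) at site 18. The interval at site 19 included 1 and that at site 18 did not. Beside site 18 lay site 17 (chr10:59440146-59441037), which was in all lists with 17.5 after Dex+E2 (3.52, 13.8 to 21.8), 22.5 after Dex (5.38, 18.2 to 27.6), 8.2 after E2 (2.18, 5.88 to 11.1) and 17.9 in untreated cells (4.95, 13.9 to 22.6). It was 2.58-fold (1.87 to 3.58) for Dex over untreated, the largest such ratio among the 9 Ddit4 sites in all lists, and 1.91-fold (1.36 to 2.68) for Dex+E2 over untreated.

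At 3 further Ddit4 sites without an E2 listing Dex exceeded untreated as deposited. Site 9 (chr10:59383485-59384524) had 12.7 after Dex+E2 (2.64, 9.6 to 16.5), 26.4 after Dex (5.1, 21.7 to 31.9) and 12.8 in untreated cells (2.85, 9.47 to 16.8). Its ratio of 4.25-fold (3.01 to 6.07) for Dex over untreated was the highest of the 34 window sites in both lists, and Dex+E2 over Dex was 0.458-fold (0.325 to 0.638). Site 8 (chr10:59382073-59382968) had 9.07 after Dex+E2 (2.19), 14 after Dex (2.65) and 12.2 in untreated cells (3.24), with 2.34-fold (1.56 to 3.5) for Dex over untreated. Site 1 (chr10:59359444-59360205), which starts outside the window and overlaps its edge, had 16.6 after Dex+E2 (3.72), 13.2 after Dex (3.12) and 9.44 in untreated cells (2.31), with 3.42-fold (2.28 to 5.23) for Dex+E2 and 2.87-fold (1.85 to 4.49) for Dex over untreated. It ends 0.013 kb before site 2, which was listed in untreated cells alone. Joining regions within 150 bp would merge the neighbours, and the untreated value of site 2, 13.5, exceeds the 13.2 of site 1 after Dex.

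The opposite end of the range was Ddit4 site 3 (chr10:59362122-59362987), with 18.4 after Dex+E2 (4.85, 14.6 to 22.8), 15.4 after Dex (3.83, 11.9 to 19.7), 14.6 after E2 (3.85, 11.4 to 18.4) and 56.6 in untreated cells (13.4, 49.4 to 64.6). It had the smallest ratio of Dex over untreated of the window, 0.558-fold (0.415 to 0.741), and stood at 0.633-fold (0.485 to 0.82) for Dex+E2 and 0.761-fold (0.576 to 0.995) for E2 over untreated. Site 2 (chr10:59360218-59360772), which begins 0.013 kb after site 1, was listed at 13.5 in untreated cells (3.88). Site 6 (chr10:59378827-59379388) was listed at 10.7 in untreated cells (2.74). Neither was in a hormone list, although site 1, which joining within 150 bp would merge with site 2, was in both lists with Dex. Site 16 (chr10:59437034-59437810) was listed at 8.57 after Dex (1.68).

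The remaining Ddit4 sites changed less than 2-fold relative to the medians. Site 4 (chr10:59370355-59371488) had 18.1 after Dex+E2 (4.27), 19.6 after Dex (4.15), 12.2 after E2 (3.06) and 35.5 in untreated cells (6.72). Site 7 (chr10:59380700-59381393) had 22.5 after Dex+E2 (7.65), 20.6 after Dex (5.93), 13 after E2 (3.65) and 32.1 in untreated cells (10.7). Site 10 (chr10:59395125-59395777) had 10.4 after Dex+E2 (3.09), 12.2 after Dex (3.58), 6.2 after E2 (1.31) and 24.2 in untreated cells (8.26). At these 3 sites the interval of Dex over untreated included 1. For Dex+E2 over untreated it left out 1 at site 7 (1.36-fold, 1.04 to 1.79) and included 1 at sites 4 and 10. Site 11 (chr10:59405990-59406974) had 19.3 after Dex+E2 (5.26), 16.4 after Dex (3.95) and 25 in untreated cells (5.44). Site 12 (chr10:59409751-59412461), which spanned 2710 bp, had 9.98 after Dex+E2 (2.47), 14 after Dex (2.84), 6.8 after E2 (1.65) and 22.2 in untreated cells (4.03). Site 13 (chr10:59413346-59413846) had 7.35 after Dex (1.41) and 9.44 in untreated cells (2.13). None of these 3 was past 2-fold in any comparison, and at site 11 Dex+E2 over untreated was 1.51-fold (1.11 to 2.03). Site 20 (chr10:59465203-59466477) had 21.6 after Dex+E2 (4.52), 14.9 after Dex (2.9), 12.6 after E2 (2.8) and 41.3 in untreated cells (8.6), with 0.741-fold (0.542 to 1.0) for Dex over untreated.

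**Figure D3:**
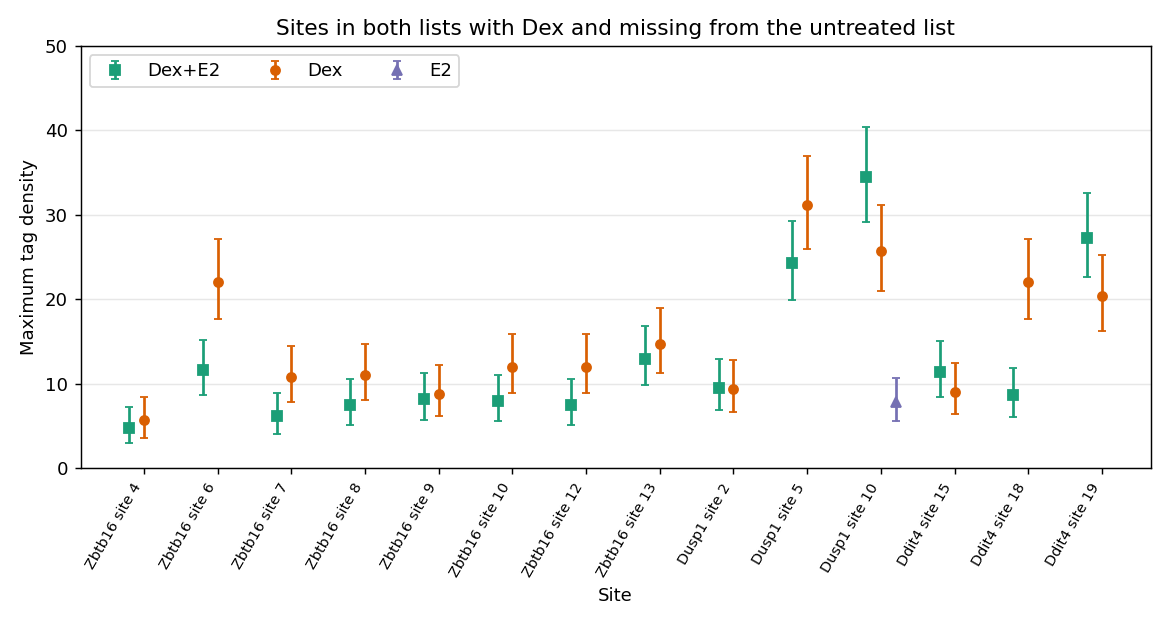
Maximum tag density with a Poisson 95% interval that treats it as a plain count, for Dex+E2 (squares), Dex (circles) and E2 (triangle). Shown are the 14 window sites that were in both lists with Dex and missing from the untreated list. Dusp1 sites 5 and 10 and Ddit4 sites 18 and 19 and Zbtb16 site 6 exceed 20 after Dex, and Dusp1 site 10 alone has an E2 value, 7.8.

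In each comparison most of the 25 sites in all 4 lists changed less than 2-fold relative to the library medians. None of the 25 lay at Zbtb16. The counts depend on the scale. As deposited, 2 of the 25 (8%) were higher after Dex than untreated, near the 6.26% of all such sites. Also as deposited, 7 were at least 2-fold lower after Dex+E2 than untreated (28%, against 45.8% of all sites), 9 after Dex (36%, against 54.1%) and 24 after E2 (96%, against 83.9%), while 1 was 2-fold higher for Dex+E2 over Dex (4%, against 2.41%) and 7 for Dex+E2 over E2 (28%, against 13.5%). The counts that follow are relative to the medians. Of the 25 sites, 2 were at least 2-fold higher after Dex than untreated (8%, 2.22 to 25), Errfi1 site 7 and Ddit4 site 17, against 6.69% of all 20687 sites, and none was 2-fold lower, against 0.595%. For Dex+E2 over untreated 1 was higher (4%, against 7.19%), Errfi1 site 12, and none lower (1.58% of all). That single call was not made as deposited or with average density, where 0 were higher. For E2 over untreated none was higher (7.89% of all) or lower (0.445% of all). Dex+E2 over Dex had none higher (1.84%) and none lower (0.889%), and Dex+E2 over E2 none higher (1.78%) and none lower (1.04%). With 25 sites, a count of 0 has a Wilson upper bound of 13.3%, above all of these background shares.

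The medians of the log2 ratios over these 25 sites were 0.25 for Dex over untreated (all 20687 sites -0.01, and as deposited -0.78 against -1.04), -0.02 for E2 over untreated (all 0.00), 0.21 for Dex+E2 over untreated (all 0.01), -0.05 for Dex+E2 over Dex (all -0.02) and 0.18 for Dex+E2 over E2 (all -0.03). The addition of Dex to untreated cells and its addition to E2 were compared in separate pairs of libraries, and 13 of the 25 sites (52%) were above 0 in both, against 25% of all sites. Below 0 in both were 3 (12%, 4.17 to 30, against 29.2%). By gene, Dusp1 had the highest medians, 0.68 for Dex over untreated (as deposited -0.35) and 0.56 for Dex+E2 over E2, with all 4 of its sites above 0 in both. Errfi1 had 0.25 and 0.33 over 9 sites, Ddit4 0.05 and 0.15 over 9, and Klf9 0.14 and -0.05 over 3. These medians do not rest on a common density. The lowest maximum listed after Dex was 9.31 at Dusp1, 7.35 at Ddit4, 5.14 at Klf9 and 4.90 at Errfi1. A site not listed after Dex has no ratio, so low ratios at weak sites can be missing. No window site was 2-fold higher in both comparisons, against 1.38% of all sites. The nearest were Dusp1 site 6 (log2 0.96 and 0.97), Errfi1 site 7 (1.57 and 0.82) and Dusp1 site 4 (0.98 and 0.77).

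**Figure D4:**
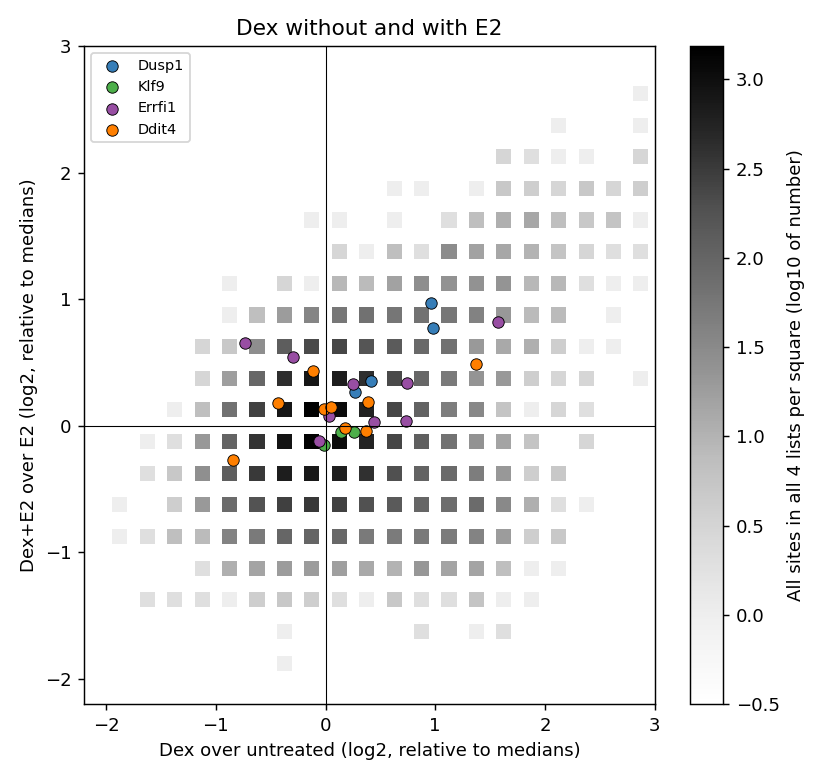
Log2 ratio for Dex over untreated (horizontal axis) and for Dex+E2 over E2 (vertical axis), both relative to library medians, for the 25 window sites in all 4 lists (coloured by gene) on the number of all 20687 such sites per square (grey, log10). The axes are cut, and some of all sites lie beyond them. Dusp1 sites 4 and 6 and Errfi1 site 7 lie farthest to the upper right.

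When sites needed to be in both lists of a pair and not in all 4, which was chosen after the data were seen, 6 of 34 window sites were at least 2-fold higher after Dex than untreated (17.6%, 8.35 to 33.5), against 11.8% of all such sites. These were Ddit4 sites 1, 8, 9 and 17, Klf9 site 2 and Errfi1 site 7. A ratio exists only where both libraries list a site, so low ratios at weak sites can be missing from these shares. The lowest density listed after Dex was 7.35 at Ddit4 and 5.14 at Klf9. The same 6 sites were the ones above the untreated library as deposited, against 11.0% of all such sites. The median after Dex was 0.488 of the untreated one, so this is nearly the same limit and no separate support. Of the 6, Ddit4 site 1 lies 0.013 kb from site 2, whose untreated value of 13.5 exceeds the 13.2 of site 1 after Dex. For Dex+E2 over untreated 3 of 33 were 2-fold higher (9.09%, against 10.7%). For Dex+E2 over E2 it was 1 of 27 (3.70%, against 1.66%), Dusp1 site 10.

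Co-treatment was set against Dex alone at the 45 window sites in both Dex lists. Dex+E2 was at least 2-fold lower at 2 of them (4.44%, 1.23 to 14.8, against 1.32% of all such sites), Ddit4 sites 9 and 18, with Zbtb16 site 6 at the limit (0.5-fold, 0.347 to 0.713). Relative to the medians 29 of the 45 (64.4%, 49.8 to 76.8) were lower to any extent, against 56.7% of all 29066 sites in both lists, whose median log2 was -0.07. At Zbtb16 all 9 sites in both lists were lower after Dex+E2 than after Dex, with a median log2 of -0.63, and the intervals of sites 6, 7, 10 and 12 left out 1. At Klf9 all 4 were lower (median -0.25). At Dusp1 5 of 7 were lower (median -0.43), at Ddit4 8 of 16 (median 0.00), and at Errfi1 3 of 9 (median 0.38). As deposited all 9 Zbtb16 ratios stayed below 1, while Klf9 site 6 (1.03), Dusp1 site 2 (1.02) and Ddit4 site 5 (1.02) were above it. Of the 13 sites in both Dex lists alone, 11 (84.6%, 57.8 to 95.7) were lower after Dex+E2, against 71.8% of the 1984 such sites in all. Their median was -0.43, against -0.18. Sites of 1 window share the same libraries and are no replicates of the treatment.

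**Figure D5:**
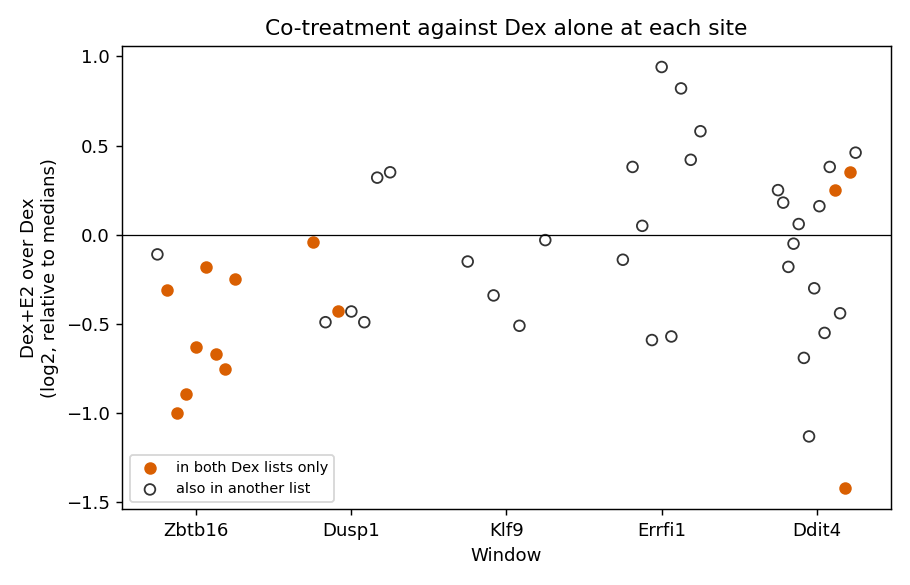
Log2 ratio of Dex+E2 over Dex, relative to library medians, at the 45 window sites in both lists, by gene window. Filled points are sites in both Dex lists only, open points are also in another list; all Zbtb16 points lie below 0, and Errfi1 points reach 0.94.

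A merged length spans the regions of every list that holds a site, so it depends on how many lists do. Window sites in 1 list had a median of 361 bp. By this measure the sites of both Dex lists alone were shorter than those in all lists. Their median length was 658 bp (392 to 964, n = 13), close to the 619 bp of all 1984 sites of this pattern, against 1133 bp (619 to 2926, n = 25) for window sites in all 4 lists. Their median maximum density was 8.62 after Dex+E2 and 12 after Dex, against 7.49 and 8.08 over all sites of the pattern. Summed over a window, the maximum densities at Zbtb16 were 80.3 after Dex+E2 (5522 bp covered, mean 7.30 per site), 111 after Dex (6293 bp, mean 10.1), 4.60 after E2 (402 bp, 1 site) and 21.2 in untreated cells (2135 bp, mean 7.06). At Dusp1 the sums were 211 (9675 bp, mean 21.1), 220.2 (8525 bp, mean 27.5), 73.0 (4387 bp, mean 10.4) and 213 (7837 bp, mean 30.4) after Dex+E2, after Dex, after E2 and in untreated cells. Such sums move with how many regions passed the threshold in a library: at Zbtb16, 10 of the 11 sites listed after Dex were missing from the untreated list and added nothing to its sum. Over the 4 Dusp1 sites in all lists the sum after Dex was 0.832 (0.744 to 0.93) of the untreated one as deposited.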

How the data were processed

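DNase-seq lists of 4 libraries, 1 per condition, were analysed, with conditions as the treatment labels state them. The submitters' processing notes name mm9 and CASAVA 1.8 without saying what each was used for. The sources used here do not name the aligner or the region caller. Each region, per the file headers, carries a maximum and an average tag density, signal values that the authors scaled per library to a total that is not stated. The deposited Z score and p-value of each region rank a region within 1 list and were not used across lists. Positions are printed as deposited, and whether they count from 0 or 1 is not stated.

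Regions of different lists that overlapped by at least 1 bp or touched were joined into sites, which take the highest value of their regions in each library. A site belonged to a window when it overlapped it. Tags were recovered as multiples of 1 step (100% of maxima within 0.02 tags). If all libraries were scaled to the same total, relative depth was 1.12 for Dex+E2, 1.04 for Dex and 1.28 for E2, with untreated at 1. Ratios have conditional binomial 95% intervals, shares have Wilson intervals, and neither includes more than counting error. The ratio intervals treat maxima as plain counts and ignore that each was picked as the highest value of its regions. Past 2-fold relative to library medians is a description, and no test was run, since each condition has 1 library. The windows, gene lists and limits were chosen with earlier results of these data known. All sites are given, with those of highest density, extreme Dex ratio or hormone-dependent listing in more detail. The site at a gene start and sites near the other glucocorticoid target genes listed in the design were not analysed, since no annotation of mm9 was used. Merging, calls and intervals were tested on simulated data. Tables were read with pandas 2.3.3 and NumPy 2.4.6 under Python 3.11.15, intervals came from SciPy 1.17.1, and figures from Matplotlib 3.10.9.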

Additional observations from a re-analysis of the deposited data

How the results depend on the processing

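Of 12 counts of sites by list, each stayed within 1.5 times of its reported value when regions were joined within 150 bp, when an overlap of 50% of the shorter region was asked for, and when midpoints had to lie inside the window. Lists of equal length moved 3 of them: 4 sites were in the untreated list alone, 6 in 1 hormone list alone and 1 in the E2 and Dex+E2 lists alone. Counts of sites past 2-fold are small and depend on the scale. As deposited, Dex over untreated had 0 higher and 9 lower, E2 over untreated 24 lower, Dex+E2 over untreated 0 higher and 7 lower, Dex+E2 over Dex 1 higher and Dex+E2 over E2 7 higher, where the untreated library has the highest median and the E2 library the lowest. With average density, Dex and E2 over untreated had 1 lower each, Dex+E2 over untreated 0 higher and Dex+E2 over Dex 1 higher. The upper quartile as the scale gave 1 higher for E2 over untreated. A limit of 1.5-fold gave 6 higher and 2 lower for Dex over untreated, 1 higher for E2 over untreated, 6 higher and 1 lower for Dex+E2 over untreated, 2 higher and 1 lower for Dex+E2 over Dex and 4 higher for Dex+E2 over E2. Sites in both lists of a pair, an alternative chosen after seeing the data, gave 6 higher for Dex over untreated, 3 higher for Dex+E2 over untreated, 2 lower for Dex+E2 over Dex and 1 higher for Dex+E2 over E2. Summed densities of Dex over untreated, were 0.832-fold at Dusp1 and 0.495-fold at Ddit4 over sites in all 4 lists, against 1.03-fold and 0.647-fold over all listed sites, and Zbtb16 had no such site. Of 59 ratios at the sites described by the naming rule, 39 left their interval as deposited, 34 as unscaled tags, 2 with average density and 0 with the upper quartile. Direction was checked only for ratios past 2-fold, and none of these changed it. Some smaller ratios did as deposited, such as Dex over untreated at Dusp1 site 4 (log2 0.98 against -0.05) and Errfi1 site 1 (0.74 against -0.29). No paired analysis was possible because the conditions share a single replicate number. Depth limits weak sites most: a maximum near 5 rests on about 20 tags.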

Other observations

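The sites missing from the untreated list can be placed within the Dex list without any scaling between libraries. By maximum density Dusp1 site 5 stood at the percentile 93.1 of the Dex list, Dusp1 site 10 at 90.3, Zbtb16 site 6 and Ddit4 site 18 at 87.5 and Ddit4 site 19 at 86.0. Among the 17523 sites that the Dex list has and the untreated list lacks, Zbtb16 site 6 and Ddit4 site 18 shared rank 106. Ddit4 site 19 had rank 135 and Zbtb16 site 13 rank 307. These sites were picked out by the same density, so high ranks follow from the choice. The lowest window ranks were 7309 for Zbtb16 site 4, 9839 for Klf9 site 5, and 11098 and 12412 for Zbtb16 sites 15 and 16. In the Dex+E2 list, where 15636 sites are missing from the untreated list, Dusp1 site 10 had rank 37, Ddit4 site 19 rank 85 and Dusp1 site 5 rank 126, while Zbtb16 site 6 had rank 1016 and Ddit4 site 18 rank 2118.

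The promoter search was repeated for a list of other glucocorticoid target genes, 17 of which had 28 entries in the promoter table, among them Fkbp5, Per1, Sgk1 and Tsc22d3. The glucocorticoid response element core was found in 4 of these 28 stretches of 250 bases (5.84% of all promoters) and the hexamer AGAACA in 5 (16.1%), and the estrogen response element core in 0 (6.11%). Several stretches belong to the same gene, so these counts describe letters only.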
